A study of Mus musculus with 7 samples.

Results

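The Hox genes encode homeodomain transcription factors that set the identity of body segments along the head to tail axis. In the mouse they stand in 4 clusters, Hoxa, Hoxb, Hoxc and Hoxd, which are copies of 1 ancestral cluster, and genes of the same number in different clusters form a paralog group. Within a cluster the genes are transcribed in the same direction and are ordered from group 13 at the 5′ end to group 1 at the 3′ end, and low-numbered groups are active earlier and closer to the head than high-numbered ones. CTCF, a DNA-binding protein with zinc fingers, is found at insulators and at domain borders of chromatin, and its sites between Hox genes are known to separate active from silent parts of a cluster.

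CTCF sites were examined in windows of mm10 around the 4 clusters, of 200 kb on chromosome 6 for Hoxa, 220 kb on chromosome 11 for Hoxb, 160 kb on chromosome 15 for Hoxc and 150 kb on chromosome 2 for Hoxd, which were set by position and not by any measured value. They hold 39 Hox genes, of which 11 are in Hoxa, 10 in Hoxb, 9 in Hoxc and 9 in Hoxd. In ChIP-exo 5.0 an exonuclease trims immunoprecipitated DNA up to the crosslinked protein. It had been applied to brain, lung, kidney and liver, and to 2,700,000, 270,000 and 27,000 liver cells. Per the methods, tissue was processed at 100 mg and the numbers of liver cells are estimates from wet weight. The cell libraries are thus of liver tissue too. Below, organs stands for the 4 libraries labelled without a cell number. All 7 libraries came from wildtype mice, which the methods describe as 16 weeks old and male, and all used a CTCF antibody per the labels, although the extraction protocol in the labels names IgG. The labels give crosslinking with 0.3% formaldehyde and the methods 1%. Each organ is a mixture of cell types, so that fewer cells with CTCF at a site and less CTCF per cell cannot be told apart. There was 1 library per group, so no difference between libraries was tested and no p-value is given. Intervals are 95% Wilson or exact Poisson intervals, and they cover counting error only.

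Each tag marks a base where digestion by the exonuclease ended, here called a stop, and the lists hold peaks of 21 bp with at least 2 tags. The organ libraries held 527038 to 1635582 listed tags, and the cell libraries held 6592538, 640635 and 35594 from most to fewest cells. A site was a forward peak followed within 10 to 80 bp by a reverse peak, in any library, and its tags were counted in 200 bp around its centre. A site was called strong when the library of 2,700,000 cells, the deepest one, held at least 20 tags there. The Hox windows held 35 of the 66382 sites of the genome and 19 of the 37539 strong sites. Of the 35 sites, 33 had a pair in the deepest library, 6 in brain, 3 in lung, 3 in kidney and none in liver. Sites bound only outside the liver are therefore poorly covered by the list of strong sites. Just inside the threshold, the lowest strong Hox sites held 23 tags, and just outside it a site between Hoxb5 and Hoxb4 held 19.

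The sequence of 1 of these sites could be read, because it lies in the promoter of Hoxa5, a group 5 gene needed for development of the lung and the trunk. The site was centred 91 bp upstream of the annotated start. The 250 bases before the start are shown 5′ to 3′ on the strand of the gene (minus strand, chr6:52204588-52204837, RefSeq promoter table of GRCm38.p6, which shares its coordinates with mm10), and the 56 capitals mark the stretch from the forward to the reverse stop with most tags in the deepest library within 60 bp of the centre, which lay at 52204651 (8 tags) and 52204706 (3 tags). Farther out, at 63 bp from the centre, a reverse stop held 4 tags.
Hoxa5 promoter: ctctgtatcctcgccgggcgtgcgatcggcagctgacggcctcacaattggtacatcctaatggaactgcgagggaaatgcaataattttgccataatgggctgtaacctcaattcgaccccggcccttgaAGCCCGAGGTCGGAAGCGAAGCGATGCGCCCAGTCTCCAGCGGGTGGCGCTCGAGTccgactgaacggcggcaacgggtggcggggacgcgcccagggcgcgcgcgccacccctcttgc

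The clusters also share microRNA genes, which give fixed landmarks for comparing them. The mature 5p sequences of the miR-196 and miR-10 genes are shown with the seed, bases 2 to 8, in capitals (RefSeq, GRCm38.p6). miR-196 genes lie beside group 9 in Hoxa, Hoxb and Hoxc, on the side of group 10, and miR-10 genes lie near group 4 in Hoxb and Hoxd.
mmu-miR-196a-5p: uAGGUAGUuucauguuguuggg
mmu-miR-196b-5p: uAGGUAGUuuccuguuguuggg
mmu-miR-10a-5p: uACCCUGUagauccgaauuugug
mmu-miR-10b-5p: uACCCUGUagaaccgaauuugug
Both miR-196 sequences share 1 seed and both miR-10 sequences share another. None of the 6 microRNA genes in the windows had a strong CTCF site within 1 kb of an end. The strong site nearest to each miR-196 gene lay on the other side of the group 9 gene, at 8256 bp from Mir196b, 13683 bp from Mir196a-1 and 14150 bp from Mir196a-2.

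In every cluster the site with most tags in the deepest library lay between the group 9 gene and the next gene toward group 1. Group 9 genes are the first of the posterior genes related to the Drosophila gene Abdominal-B, which pattern the lower trunk, the limbs and the urogenital tract. These sites held 72 tags between Hoxa9 and Hoxa7, 89 between Hoxb9 and Hoxb8, 182 between Hoxc9 and Hoxc8 and 192 between Hoxd9 and Hoxd8. They lay 1272, 2353, 3140 and 2190 bp past the 3′ end of the group 9 gene, and 3252, 453, 2955 and 2217 bp before the annotated start of the next gene. The lead over the second site of the cluster was clear in Hoxc (182 tags, Poisson interval 157 to 210, against 71, 55.5 to 89.6) and in Hoxd (192, 166 to 221, against 48, 35.4 to 63.6). In Hoxa (72, 56.3 to 90.7, against 51, 38.0 to 67.1) and Hoxb (89, 71.5 to 109.5, against 77, 60.8 to 96.2) the intervals overlapped, so the order there is within counting error. The 4 sites held 43.6% of the 1228 tags at strong Hox sites in that library. They were not outstanding genome-wide, since 58.2% of all strong sites held fewer tags than the Hoxa site and 91.7% held fewer than the Hoxd site.

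**Figure D1:**
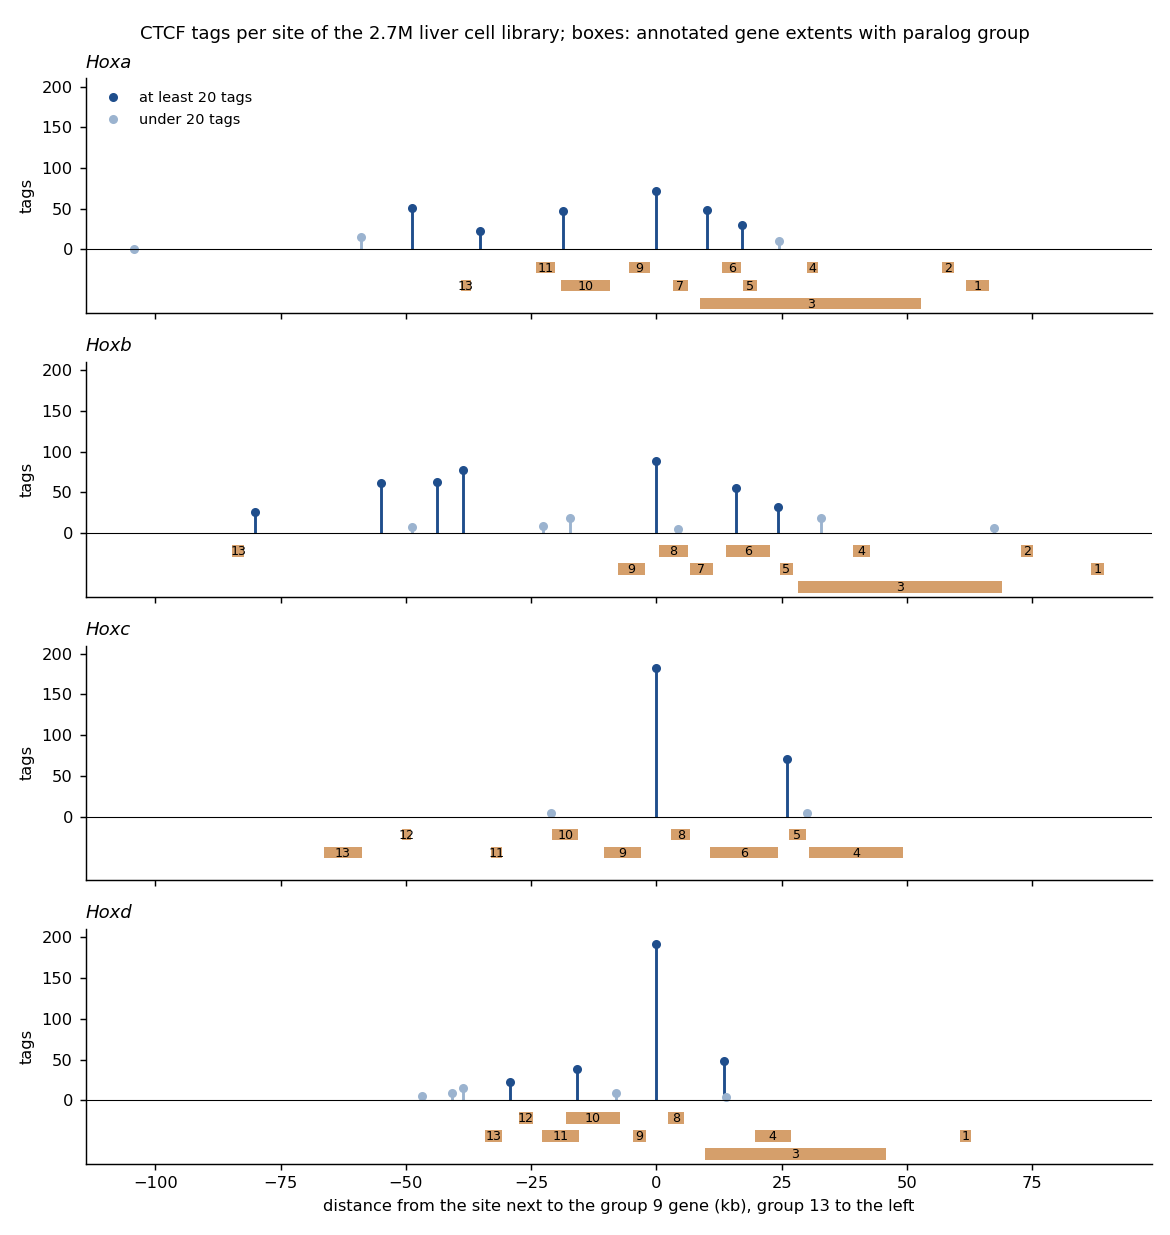
Tags of the library of 2,700,000 liver cells (2.7M) in 200 bp at each of the 35 Hox sites (y axis) against the distance in kb from the site next to the group 9 gene (x axis), with group 13 to the left; boxes are annotated gene extents with their paralog group, in rows so that overlapping genes can be seen. The highest stem of each panel stands at 0, with 72, 89, 182 and 192 tags, and the right side of each panel, where groups 1 to 4 lie, has no strong site except where the long extent of Hoxa3 or Hoxd3 covers one.

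The organs held tags at these group 9 sites in different combinations. At the Hoxa9 to Hoxa7 site (chr6:52221725-52221924) brain held 13 tags, lung 19, kidney 8 and liver 3, and the library of 270,000 cells held 2. It was the only strong Hox site with tags in all 4 organs, that is 1 of 19, where 8.6% of all strong sites were so. At the Hoxb9 to Hoxb8 site (chr11:96278848-96279047) brain held 12 tags, lung 19 and the library of 270,000 cells 4, and no peak was listed in kidney or liver. These were the pair of Hox sites with most brain tags. At the Hoxc9 to Hoxc8 site (chr15:102987484-102987683) brain held 5 tags, lung 8, kidney 7 and the library of 270,000 cells 3, with none listed in liver. At the Hoxd9 to Hoxd8 site (chr2:74702298-74702497) lung held 9 tags, kidney 8 and the library of 270,000 cells 3, with none listed in brain or liver. Lung was the only organ with tags at all 4 (41.0% of all strong sites). Brain held tags at 3 of them (51.4%), kidney at 3 (35.6%) and liver at 1 (21.4%). The library of 27,000 cells had none at any of them (1.4%). All 19 lung tags at the Hoxa site were in peaks whose tags start at 1 position, whereas 7 of the 13 brain tags there were in peaks of several positions.

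A second shared position lay between the genes of groups 6 and 5. All 3 clusters that have both genes held a strong site there, centred 91 bp before the start of Hoxa5, 220 bp before that of Hoxb5 and 310 bp before that of Hoxc5, and these sites were 17147, 24344 and 26114 bp from the group 9 site of their cluster. Hoxd has no group 5 gene. In the deepest library the Hoxa5 site held 30 tags, the Hoxb5 site 32 and the Hoxc5 site 71. Hoxb5, like Hoxa5, is known for its expression in lung mesenchyme during development. Expression was not measured here, and a relation of it to the tags was not tested. At the Hoxb5 site (chr11:96303192-96303391) lung held 30 tags, liver 2 and the library of 270,000 cells 6, with no peak listed in brain or kidney, and 22 of the lung tags were in peaks of several positions. That was the highest count of any Hox site in any organ. The stops at the Hoxb5 site were not a plain pair, and those of lung lay elsewhere than those of the deepest library. In the deepest library the only forward peak held 2 tags, and the highest reverse peak, of 16 tags, lay 27 bp before the centre. In lung a forward peak of 12 tags lay 62 bp before the centre and a reverse peak of 8 lay 48 bp before it. Another lung forward peak of 8 tags lay 20 bp after the centre. At the Hoxc5 site (chr15:103013598-103013797) lung held 9 tags, brain 3 and the library of 270,000 cells 2. At the Hoxa5 site (chr6:52204578-52204777), in the printed promoter, kidney held 9 tags, lung 5 and the library of 270,000 cells 5. Lung had tags at all 3 sites (41.0% of all strong sites). Brain (51.4%), kidney (35.6%) and liver (21.4%) each had tags at 1.

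A further 2 sites lay between groups 7 and 6. The site between Hoxa7 and Hoxa6 held 48 tags in the deepest library, 11 in kidney, 5 in lung and 2 in brain. The site between Hoxb7 and Hoxb6, inside the annotated extent of Hoxb6, held 55 in the deepest library and 11 each in lung and kidney. Lung and kidney thus held tags at both sites, and liver at neither. Over all strong sites, lung held tags at 41.0%, kidney at 35.6% and liver at 21.4%. In Hoxd, which lacks groups 5 to 7, a site between Hoxd8 and Hoxd4 held 48 tags in the deepest library, 7 in lung and 5 in kidney. It lay inside the long annotated extent of Hoxd3 and inside the antisense gene Hoxd3os1.

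Sites were placed between the 3′ ends of neighbouring genes. On the side of groups 10 to 13, 3 of the 4 clusters held a strong site between group 13 and the next gene. Of the 3 clusters with groups 11 and 10, 1 held a strong site between them by this placement. Hoxa had a site between Hoxa11 and Hoxa10, 312 bp inside the annotated extent of Hoxa10, with 47 tags in the deepest library, 6 in brain, 4 in lung and 4 in kidney. Between Hoxa13 and Hoxa11 a site held 23 tags in the deepest library, 8 in kidney, 6 in brain and 2 in liver. Outside the gene row, 9827 bp upstream of Hoxa13, a site held 51 in the deepest library, 4 in brain and 2 in lung, and it was 3104 bp from Hottip, a long noncoding RNA gene known to act on the 5′ genes of Hoxa. Genes of groups 11 and 13 are needed for the limb and the urogenital tract. In Hoxb, 4 strong sites lay in the stretch of 79985 bp between the 3′ ends of Hoxb13 and Hoxb9, where Hoxb has no gene of groups 12 to 10. They held 26, 61, 63 and 77 tags in the deepest library from the Hoxb13 end. The site of 61 tags (chr11:96223913-96224112) was the only strong Hox site with no tags in any organ, 1 of 19 against 31.1% of all strong sites, and had none in the libraries of 270,000 and 27,000 cells either. The site of 63 tags (chr11:96235011-96235210) held 5 in brain and 2 in liver, and was the only strong Hox site with tags in the library of 27,000 cells, which held 4 there, all starting at 1 position. The site of 77 held 9 tags in lung, 2 in brain and 2 in liver, and the site of 26 held 2 in liver alone. In Hoxd the site between Hoxd13 and Hoxd12 held 23 tags in the deepest library and 5 in kidney. The site placed between Hoxd12 and Hoxd11 held 38 tags in the deepest library, with 4 in kidney and 2 in brain. It lay inside the overlapping extents of Hoxd11 and Hoxd10, 541 bp from the 3′ end of Hoxd11. Hoxc had no strong site on that side.

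**Figure D2:**
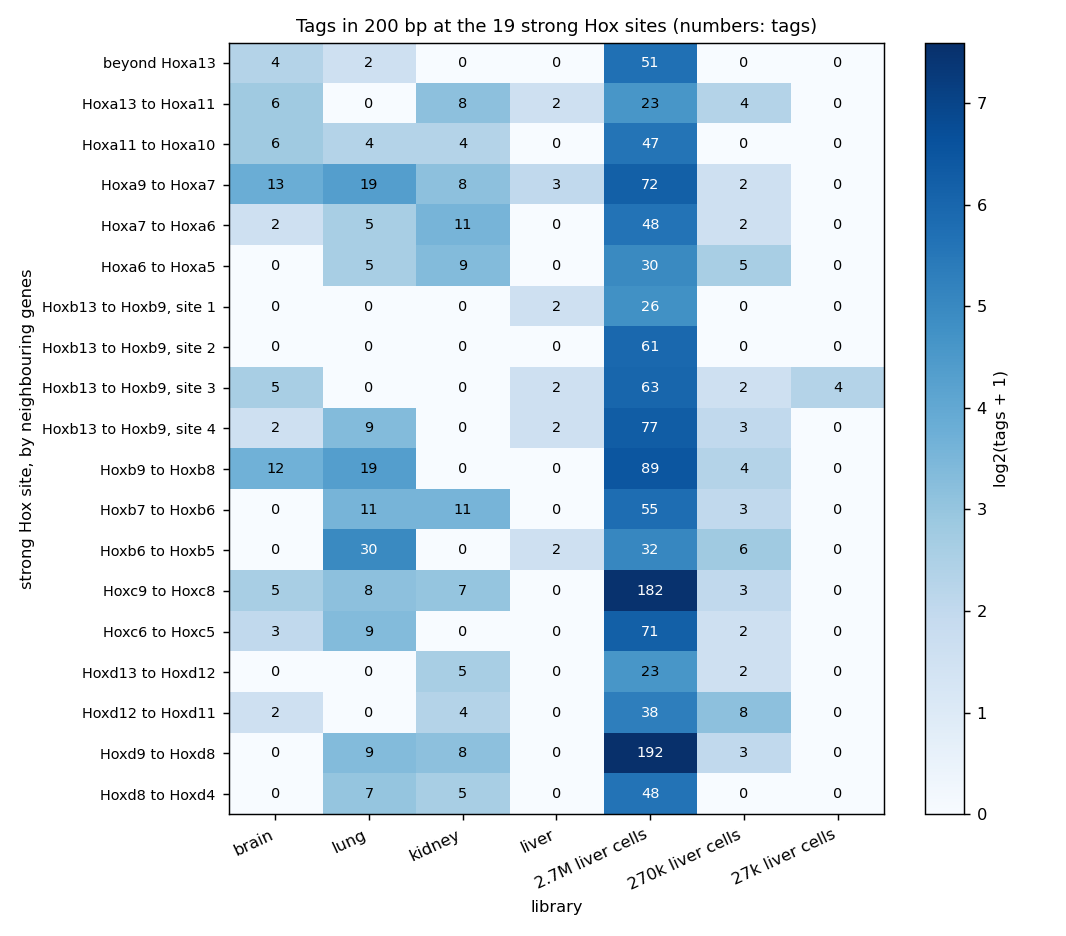
Tags in 200 bp at the 19 strong Hox sites (rows, named by the neighbouring genes, from group 13 to group 1 within each cluster) in the 7 libraries (columns), with log2(tags + 1) as colour and the tags as numbers; a 0 stands for a window without a listed peak. The column of the 2,700,000-cell library is filled by the choice of sites, and among the organs the highest number is the 30 lung tags between Hoxb6 and Hoxb5.

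Counted by intervals, 15 of the 35 intervals between neighbouring Hox genes held a strong site (5 of 10 in Hoxa, 4 of 9 in Hoxb, 2 of 8 in Hoxc and 4 of 8 in Hoxd). Intervals run between the 3′ ends of genes because the annotated extents of Hoxa3, Hoxb3 and Hoxd3 overlap their neighbours. They were 3104 to 79985 bp long. The same share for intervals between other genes was not computed, so this count is a description only. No strong site lay between groups 10 and 9 in any of the 3 clusters that have both, and none between groups 5 and 4, where each of 3 clusters had a weaker site. None lay between group 3 and the next gene in 3 clusters. The 3′ ends of the windows were therefore free of strong sites over 74.7 kb in Hoxa, which include Hoxa2, Hoxa4 and Hoxa5, over 86.7 kb in Hoxb, from Hoxb5 to Hoxb1, and over 74.1 kb in Hoxd, with Hoxd4 and Hoxd1. Hoxc had its longest stretch of this kind, 87.6 kb, at the other end, over Hoxc9, Hoxc10, Hoxc11, Hoxc12 and Hoxc13. With 19 strong sites in 730 kb the windows held 5.21 per 200 kb, where tiles of 200 kb across the genome held 2.76 on average, with a median of 2 and quartiles of 0 and 4. Hoxc held 2.5 per 200 kb and Hoxb 6.36.

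Of the 39 Hox genes, 7 had a strong site within 1 kb of an end, where 12.8% of 34614 protein-coding and long noncoding genes did. They were Hoxa5, Hoxa6, Hoxb5, Hoxb8 and Hoxc5 among the 15 genes of groups 4 to 8, and Hoxa10 and Hoxd11 among the 16 genes of groups 9 to 13, and there was none among the 8 genes of groups 1 to 3. The median distance from the annotated start to the nearest strong Hox site was 3048 bp for groups 4 to 8, 5406 bp for groups 9 to 13 and 42260 bp for groups 1 to 3. Seen from the sites, 9 of the 19 lay within 1 kb of an end of a protein-coding or long noncoding gene, against 11.4% of all strong sites. The 730 kb hold 39 Hox and 27 long noncoding RNA genes, and the part of this gene density in that share was not tested. Among Hox cofactor genes of the Pbx, Meis and Pknox families, whose products bind DNA together with Hox proteins, 1 of 9 had a strong site within 1 kb of an end. That was Pknox2, at 138 bp, with 20 tags in the deepest library and 3 each in brain and lung. None of 12 other homeobox genes (Evx, Gsx, Dlx, Pdx1 and Cdx2) and 1 of 7 genes flanking the clusters had one. The latter was Skap1, an adaptor gene beside Hoxb, whose site held 82 tags in the deepest library, 41 in lung, 8 in brain and 8 in kidney. Of the 27 long noncoding RNA genes in the windows, 3 had a strong site within 1 kb.

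Promoter sequences of 300 bases were to hand for 22 of the 39 Hox genes (24 promoters). The deepest library listed peaks in 3 of the 24, and the Hoxa5 promoter alone held a site, with 9 peaks and 37 tags. The Hoxd10 promoter held 1 kidney peak of 9 tags, and 1 peak of 2 tags in the deepest library. The letters CCNNNAGNNGGC, part of the known CTCF core motif, were searched on both strands. They were found in 8.61% of all 32851 promoters of that length, in 47.1% of the 1020 that held the centre of a strong site, and in 4 of the 24 Hox promoters, those of Hoxa11, Hoxc4, Hoxd3 and a start of Hoxd11. No exact match lay in the Hoxa5 promoter, which says only that these letters are not in that window. The capitals of the printed Hoxa5 sequence do hold a near match, which differs from the searched letters at 1 fixed position. Near matches were not searched in the other promoters, so how common they are was not tested.

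Across the strong Hox sites, brain held tags at 11 of 19, against 51.4% of all strong sites, lung at 13 (41.0%), kidney at 11 (35.6%) and liver at 6 (21.4%). The library of 270,000 cells held tags at 14 (40.1%) and that of 27,000 cells at 1 (1.4%). As shares of the 19 these were 57.9% (Wilson interval 36.3 to 76.9) in brain and in kidney, 68.4% (46.0 to 84.6) in lung, 31.6% (15.4 to 54.0) in liver and 73.7% (51.2 to 88.2) in the library of 270,000 cells. The intervals for brain, liver and 27,000 cells included the share over all strong sites. Those for lung, kidney and 270,000 cells lay above it, in kidney by under 1 percentage point. Of 38 windows moved by 5 kb from these sites, 6 held tags in kidney and none in the other organs, and over all strong sites 4.03% of moved windows did so in kidney. With at least 4 tags required, the library of 270,000 cells held tags at 5 sites and liver at none. The share over all strong sites at that requirement was not computed.

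Lung placed a larger share of its strong-site tags at Hox sites than brain did, and the position of kidney depended on the threshold and the denominator. In lung the share was 0.0794% (137 of 172491 tags, 0.0672 to 0.0939) and in kidney it was 0.0967% (80 of 82737, 0.0777 to 0.120). It was 0.0357% in brain (60 of 167929, 0.0278 to 0.0460), 0.0394% in liver (13 of 32962, 0.0231 to 0.0675) and 0.0390% in the deepest library (0.0369 to 0.0413), whose own tags chose the sites. In the library of 270,000 cells it was 0.0536% (0.0405 to 0.0708). The lung and kidney intervals lay above that of brain. Tags of the same site are not independent, so these intervals and those given below by cluster are too narrow for a comparison of organs. At sites of at least 50 tags the share was 0.0317% in brain (0.0236 to 0.0426), 0.0508% in kidney (0.0364 to 0.0710) and 0.0615% in lung (0.0498 to 0.0760), and only the lung interval then lay above that of brain. Of all listed tags outside dense regions, which are bins of 10 kb packed with peaks in most libraries and absent from the Hox windows, 0.0210% lay at strong Hox sites in lung, 0.00649% in brain and 0.00554% in kidney, so that lung stayed above brain and kidney did not. Without the Hoxb5 site the lung share of strong-site tags was 0.0620%. The 27,000-cell library held 4 such tags.

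**Figure D3:**
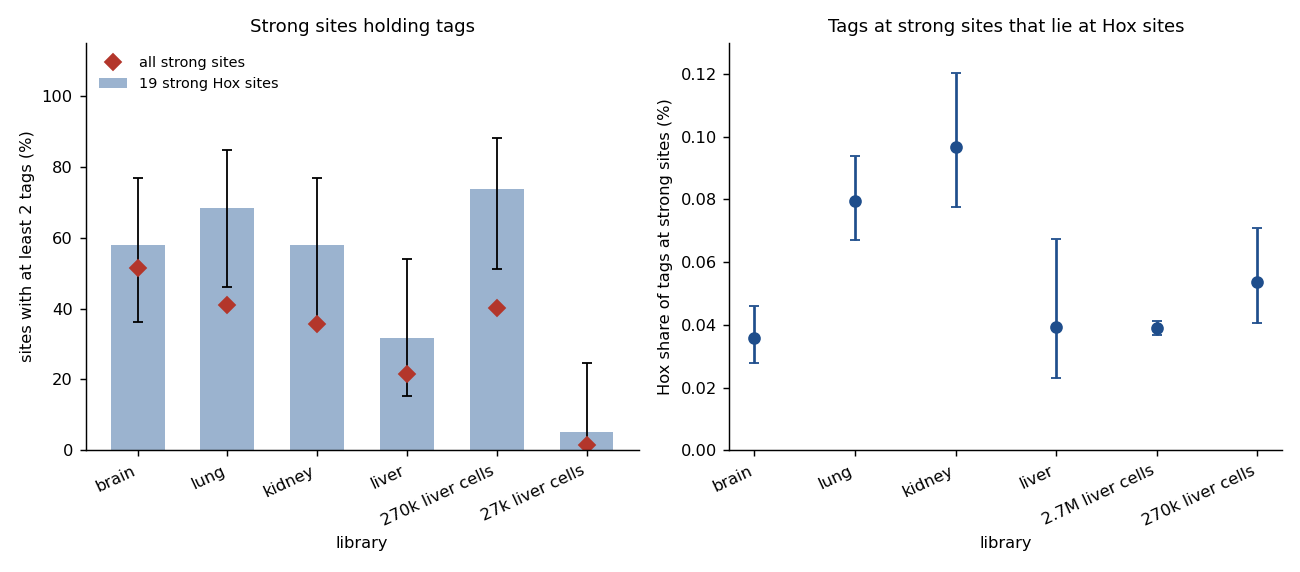
Left, percent of the 19 strong Hox sites with at least 2 tags in each library (bars, with 95% Wilson intervals) and the same percent over all 37539 strong sites (diamonds); right, Hox sites' percent of the tags at all strong sites (points, with 95% Wilson intervals), without the library of 27,000 cells, which held 4 Hox tags. The bars for lung and for 270,000 cells stand above their diamonds by more than the interval, and lung and kidney lie above brain on the right.

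The clusters contributed unequally to these shares. Per 10000 strong-site tags, Hoxa held 4.84 in kidney (Poisson interval 3.45 to 6.58), 2.03 in lung (1.41 to 2.82) and 1.85 in brain (1.25 to 2.62). Hoxb held 1.13 in brain (0.681 to 1.77), 1.33 in kidney (0.664 to 2.38) and 4.0 in lung (3.11 to 5.06). Of the kidney tags at strong Hox sites, 40 of 80 lay at Hoxa, and of the lung tags 69 of 137 lay at Hoxb. The Hoxb5 site alone held 30 of those 69. Without it the Hoxb rate in lung was 2.26 (1.61 to 3.09), which overlapped the brain, kidney and liver intervals. In liver, Hoxb held 8 tags, or 2.43 (1.05 to 4.78). Hoxd held 2.66 in kidney (1.67 to 4.03), 0.928 in lung (0.530 to 1.51) and 0.119 in brain (0.0144 to 0.430), where brain had 2 tags in all. All 4 strong Hoxd sites held kidney tags, and 1 held brain tags. The organ with the highest rate at a site depended on the scaling. At the 13 strong sites of at least 10 organ tags, lung led at 11 and kidney at none when tags were divided by all tags of the organ outside dense regions, and lung led at 4 and kidney at 8 when they were divided by the organ's tags at all strong sites. By the first scaling the lung share of the summed organ rate was highest at the Hoxb5 site (90.1%) and the Hoxc5 site (81.0%). Next came the sites between Hoxd8 and Hoxd4 (75.6%), between Hoxd9 and Hoxd8 (71.4%) and between Hoxb9 and Hoxb8 (69.2%). By both scalings lung led at the Hoxb5, Hoxc5, Hoxb9 to Hoxb8 and Hoxa9 to Hoxa7 sites, at the last with 29.4% by the second scaling. Peaks of several positions held 2 of the 19 lung tags and 7 of the 12 brain tags between Hoxb9 and Hoxb8. Between Hoxa9 and Hoxa7 such peaks held none of the 19 lung tags and 7 of the 13 brain tags. They held 22 of the 30 lung tags at the Hoxb5 site and all 9 at the Hoxc5 site. Hoxc held 0.476 in brain, 0.986 in lung and 0.846 in kidney, and liver had no tags at strong Hoxc or Hoxd sites.

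Within the clusters, the tags of the organs were placed differently on either side of the group 9 site, a split that was chosen after the values were seen. Of the 19 sites, 9 lay on the group 9 to 13 side, 4 were the group 9 sites themselves, and 6 lay on the side of groups 8 to 1. Lung held tags at all 6 of the latter (41.0% of all strong sites), kidney at 4 (35.6%), brain at 2 (51.4%) and liver at 1 (21.4%). Without peaks of 1 position lung and kidney each held tags at 4 and brain at 1, and the share over all strong sites was not computed. They held 48.9% of the lung tags at strong Hox sites (40.7 to 57.2), 45.0% of the kidney tags (34.6 to 55.9), 8.33% of the brain tags (3.61 to 18.1) and 23.1% of the tags of the deepest library (20.9 to 25.6). The 9 sites on the group 9 to 13 side held 41.7% of the brain tags, 10.9% of the lung tags, 26.3% of the kidney tags, 61.5% of the 13 liver tags and 33.3% of those of the deepest library, which are parts of the same totals and no separate observation. Without the Hoxb5 site the lung share on the side of groups 8 to 1 was 34.6%, and without peaks of 1 position it was 78.2%, while that of brain was 6.25% without such peaks. Tags of the same site are not independent, so these intervals are too narrow for a comparison of organs.

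Most organ tags in the windows lay away from the sites. Sites held 67 of 325 Hox tags of brain (20.6%), 163 of 398 of lung (41.0%), 92 of 608 of kidney (15.1%) and 15 of 159 of liver (9.43%), against 58.3% in the deepest library (1367 of 2344). Peaks whose tags start at 1 position made up 77.3 to 87.6% of the organ peaks in the windows and 32.1% of those of the deepest library. Away from sites, the highest organ peak in the windows held 14 tags, in lung within Hoxb. Of all tags outside dense regions, Hoxa to Hoxd together held 0.0351% of such tags of brain, 0.0611% of those of lung, 0.0421% of those of kidney, 0.0402% of those of liver and 0.0391% of those of the deepest library. Of the 16 weaker Hox sites, 6 held tags in an organ. The same share over all weaker sites of the genome was not computed, so this count is a description only. A weaker site far beyond Hoxa13 was a brain pair of 4 tags with no peak of the deepest library. The site of 19 tags between Hoxb5 and Hoxb4 held 13 in lung and 2 in liver. A site 198 bp before the start of Hoxc10 had a pair in kidney, with 6 tags, and none in the deepest library, which listed 4 tags there.

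The stops gave the shape of the sites. At the 19 strong Hox sites the forward stop before the centre and the reverse stop after it with most tags in the deepest library, both within 60 bp of the centre, were a median of 55 bp apart (quartiles 45.5 and 63.5, range 25 to 91), against 45 bp at 37496 strong sites with both (37 and 61). By tag-weighted mean positions the medians were 44.9 bp at the Hox sites and 45.6 bp over all strong sites, so that the wider Hox spacing rests on how the stop is chosen. With stops taken up to 100 bp from the centre, a limit added after the data were seen, the medians were 63 and 50 bp. Within 60 bp, the group 9 sites of Hoxb and Hoxd had stops 41 bp apart, and those of Hoxa and Hoxc 64 and 68 bp, although the highest forward peak of the Hoxb site, of 12 tags, lay farther out, 74 bp before the centre. At the Hoxd9 to Hoxd8 site the deepest library had a forward peak of 54 tags and a reverse peak of 68, and at the Hoxc9 to Hoxc8 site a reverse peak of 68 faced forward peaks of 26, 21 and 17. The Hoxa site had 1 high forward peak of 23 tags and reverse peaks of at most 8, and the Hoxb site had several peaks of 2 to 17. In the organs few sites had a forward stop before and a reverse stop after the centre within 60 bp, 3 in brain, 1 in lung and none in kidney or liver.

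**Figure D4:**
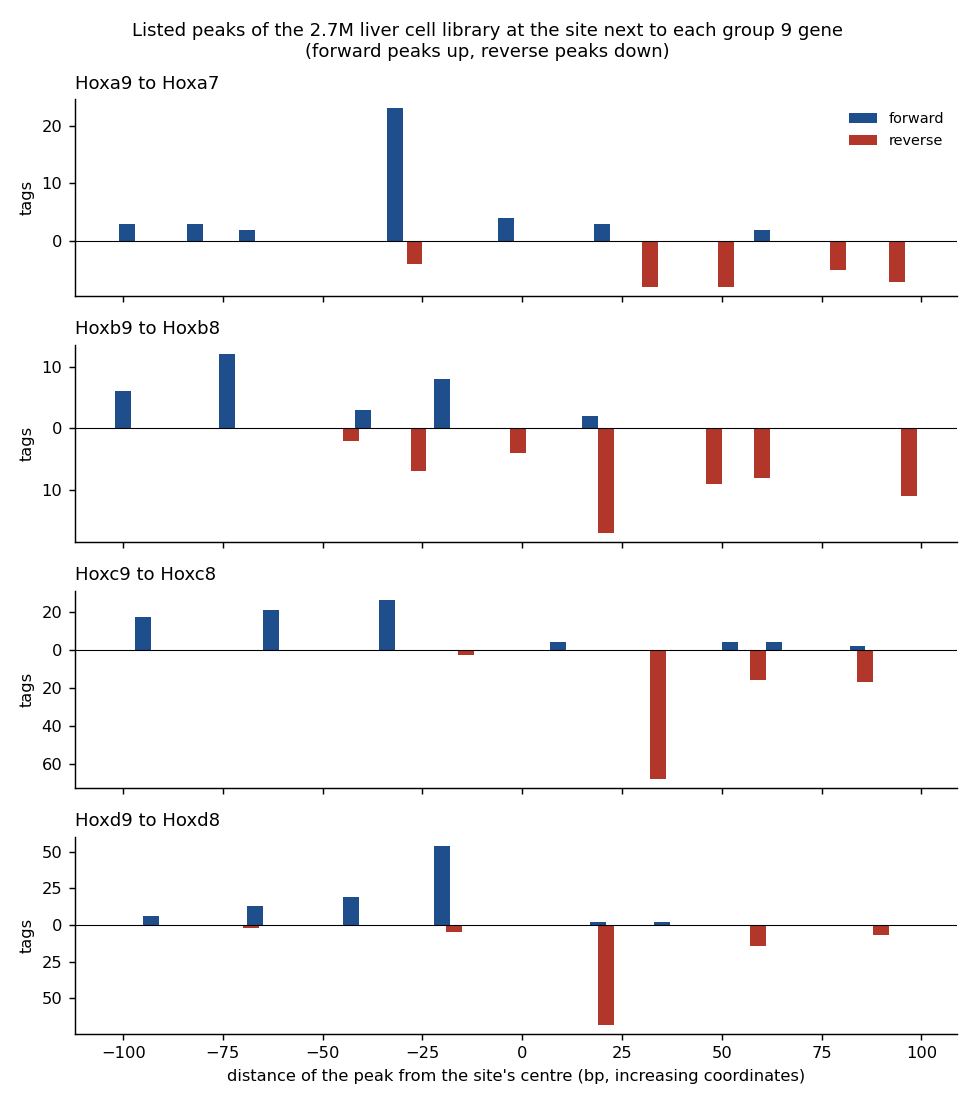
Listed peaks of the library of 2,700,000 liver cells (2.7M) at the site next to each group 9 gene, as tags (y axis, forward peaks upward and reverse peaks downward, with a scale of its own in each panel) against distance from the site's centre in bp (x axis). In Hoxc and Hoxd a reverse peak of 68 tags stands to the right of the forward peaks, and in Hoxa and Hoxb the peaks are lower and more spread.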

How the data were processed

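CTCF ChIP-exo 5.0 was measured in 7 mouse libraries, 1 per group. Per the methods, the authors sequenced paired-end reads, aligned them with bwa-mem and removed non-unique alignments and PCR duplicates. The submitters' processing notes name BWA 0.7.9a, bcl2fastq 2.16 and mm10. The authors deposited peak lists with a raw count of tags for each peak and the standard deviation of tag positions, from which peaks of 1 position (a deviation of 0) were known. Peaks under 2 tags are not listed, so a 0 is no measure of absence. The duplicate removal keeps fragments that share 1 stop, and such peaks stay in the counts.

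From the counts, peaks outside 13 dense bins of 10 kb (at least 20 peaks in at least 6 libraries, none in the Hox windows), the mitochondrial genome and unplaced sequences were paired, pairs within 50 bp were joined, and overlapping windows were removed, the one with fewer tags first, which left 35 of 42 Hox sites. Genes came from RefSeq GRCm38.p6. The strand of each cluster came from the promoter table. Placement between genes by their 3′ ends was chosen after the data were seen. The planned naming rule took every interval with a strong site, the 4 strongest sites per cluster, sites with tags in all organs, the 3 highest per organ, sites of at least 6 organ tags without a pair in the deepest library, and the 5 with the highest share of their depth-scaled tags in 1 organ. The members and lists were chosen with earlier results of these data known. No genome sequence was used here. Pairing and counting were tested on simulated peaks. Calculations used pandas 2.3.3, numpy 2.4.6 and scipy 1.17.1 under Python 3.11.15, and plots matplotlib 3.10.9.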

Additional observations from a re-analysis of the deposited data

How the results depend on the processing

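The number of Hox sites (30 to 35) kept within 1.5 times its value under every alternative. Strong Hox sites numbered 10 and their intervals 7 at a threshold of 50 tags, and 24 and 17 at 10 tags. At 50 tags, the strong Hox sites with tags were 7 in brain, 8 in lung, 4 in kidney, 3 in liver and 8 in the library of 270,000 cells. With at least 4 tags required they were 7 in brain, 0 in liver and 5 with 270,000 cells. Without peaks of 1 position they were 3 in liver and 0 with 27,000 cells, whose Hox share was then 0.0%. Shares over all sites of the genome were not computed for these counts of sites, which therefore have no background beside them. Of all tags outside dense regions, Hox sites held 0.00649% in brain, 0.0210% in lung, 0.00554% in kidney, 0.00329% in liver, 0.0205% with 2,700,000 cells, 0.0101% with 270,000 and 0.0178% with 27,000, and this denominator puts kidney below brain. At 50 tags the share of strong-site tags was 0.0615% in lung, 0.0508% in kidney, 0.0346% with 2,700,000 cells and 0.0274% with 270,000. Without the Hox site of most tags, an alternative added after the data were seen, it was 0.0620% in lung and 0.0329% with 2,700,000 cells. On the side of groups 8 to 1, the lung share was 34.6% without that site and 78.2% without peaks of 1 position, that of 2,700,000 cells was 27.4% without that site, and brain kept tags at 1 site without peaks of 1 position. Without the Hoxb5 site, lung held 2.26 Hoxb tags per 10000 strong-site tags. The median stop distance was 44.9 bp by tag-weighted positions. The cause of these changes was not tested. In all, 53 of 85 alternative values stayed within 1.5 times the main count or within its interval. No paired analysis was possible because each group had 1 library, which also left no replicate to leave out. The organs held 0 to 30 tags per strong Hox site, and a site without a listed peak may still have held a tag.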
